A study of Mus musculus with 6 samples.

Results

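The genes described here are 10 genes of fatty acid handling under the nuclear receptor PPARG: Pparg, Fabp4, Fabp5, Cd36, Lpl, Plin2, Angptl4, Cpt1a, Acsl1 and Acsl3. They were chosen by name, with earlier results of these data known. All 10 were found among the 52459 genes of the deposited table, and all 10 were among the 14857 genes with enough reads to test. They were followed in macrophages grown from C57BL/6 mouse bone marrow with GM-CSF and then given RIP1i or DMSO overnight from day 7. The RIP1i group held 3 libraries and the DMSO group, the solvent control, also held 3. The study concerns RIP1, a kinase of TNF receptor signalling, in macrophages. RIP1i is named in the labels without its compound or dose, GM-CSF was given to both groups, and the labels do not say whether the replicates were separate cultures or animals, so that the spread between them may be technical. Library totals ran from 40264902 to 44862310 counts.

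PPARG is a nuclear receptor that pairs with a retinoid X receptor, binds fatty acids and their derivatives, and switches on genes for the uptake, binding and storage of lipid. GM-CSF raises PPARG in developing alveolar macrophages, which clear lipid-rich surfactant from the lung. A fatty acid enters such a cell after a lipase frees it from triglyceride or through a surface transporter, is carried by a binding protein, is joined to coenzyme A, and is then stored in a droplet or burned in mitochondria.

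The stretch before a gene's start site is among the places where such receptors can bind. PPARG with its partner is known to bind a direct repeat of AGGTCA with 1 base between the copies, AGGTCANAGGTCA. RefSeq windows on the build GRCm38.p6 were matched for 6 members by symbol, namely Acsl1, Acsl3, Cd36, Cpt1a, Pparg and Plin2, and the 250 bases before each RefSeq start site were searched on both strands. No member window held the full repeat, which was found in 11 of 32851 windows (0.0335%) of all genes. The exact repeat is so rare that its absence from 9 windows says nothing about these genes. The single copy AGGTCA stood in 5 of the 9 windows of these members, belonging to 4 genes, against 14.0% of all windows. A match is a description of letters and not a binding site. By the GENCODE annotation both Pparg copies, the Cpt1a copy and the Cd36 copy lie inside the gene, downstream of its earliest annotated start. The Pparg windows that hold a copy and the Cpt1a window overlap an annotated exon of the gene, and the Cd36 window overlaps none. The Plin2 window meets an exon at base 86670060, the gene's first base on its strand, and its copy lies outside the gene. The 5 copies are shown because they are the only letters of the repeat that the members' windows held, as 30 bases of the gene's own strand with the copy in capitals (TGACCT where it lies on the other strand).
Pparg, chr6:115361104-115361133, plus strand, 28 bases before a RefSeq start site: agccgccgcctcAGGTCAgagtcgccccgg
Pparg, chr6:115362319-115362348, plus strand, 9 bases before another RefSeq start site: ttttatataagggacgcgaggAGGTCAaga
Cd36, chr5:17836107-17836136, minus strand, 228 bases before a RefSeq start site: ctctgcactttaTGACCTgagattttcagg
Plin2, chr4:86670260-86670289, minus strand, 218 bases before a RefSeq start site: tttcaggaccccTGACCTaagtcagacagc
Cpt1a, chr19:3323195-3323224, plus strand, 94 bases before a RefSeq start site: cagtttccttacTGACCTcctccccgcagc

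The whole 250 bases are shown for a pair of members that had a window. They are Acsl3, the member with the smallest p, and Cd36, among the members with the widest spread between RIP1i libraries. Neither was called, and Lpl, which spread more than Cd36, had no matched window. The Acsl3 stretch held no AGGTCA. The single copy in the Cd36 stretch, which lies inside the gene, is in capitals as TGACCT.
Acsl3, chr1:78657575-78657824, plus strand: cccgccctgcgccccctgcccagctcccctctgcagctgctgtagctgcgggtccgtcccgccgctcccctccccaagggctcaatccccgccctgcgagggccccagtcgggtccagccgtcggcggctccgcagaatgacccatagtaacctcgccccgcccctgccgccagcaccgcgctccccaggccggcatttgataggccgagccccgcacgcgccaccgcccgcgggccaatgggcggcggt
Cd36, chr5:17835897-17836146, minus strand: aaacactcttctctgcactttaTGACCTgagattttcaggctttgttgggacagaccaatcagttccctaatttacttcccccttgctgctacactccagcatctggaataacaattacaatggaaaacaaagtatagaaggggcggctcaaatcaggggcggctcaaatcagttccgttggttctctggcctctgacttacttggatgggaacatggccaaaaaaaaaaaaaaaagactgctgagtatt

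The members spanned from some of the most abundant transcripts of these cells to weakly expressed ones. On the FPKM scale, which divides reads by gene length and library size and so allows genes to be compared, the order of mean levels over the 6 libraries was Fabp5, Lpl, Cd36, Plin2, Fabp4, Cpt1a, Acsl1, Pparg, Acsl3 and Angptl4. Fabp5, at 245 ± 6.38 FPKM (SD, n = 6), lay above 99.0% of tested genes, and Angptl4, at 3.44 ± 0.588 FPKM (SD, n = 6), above 47.6%. Lpl and Cd36 overlapped in their range over the libraries, as did Fabp4 with Cpt1a and Cpt1a with Acsl1. The other 6 neighbouring pairs in the order did not overlap.

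Pparg (ENSMUSG00000000440.12, chromosome 6, 115360951 to 115490399, plus strand) encodes the receptor itself. It stood at 9.41, 10.1 and 8.43 FPKM in RIP1i replicates 1 to 3 and at 9.28, 8.99 and 10.5 FPKM in DMSO replicates 1 to 3. The groups overlapped, and the third RIP1i library was the lowest while the third DMSO library was the highest. With edgeR's quasi-likelihood test the log2 fold change, RIP1i minus DMSO, was -0.040 ± 0.080 (SE), with a 95% interval from -0.23 to 0.15 and an adjusted p of 0.940. An antisense gene annotated over Pparg, Gm44079, had 0 counts in each of the 6 libraries.

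The uptake genes were Lpl and Cd36. Lpl (ENSMUSG00000015568.16, chromosome 8, 68880491 to 68907448, plus strand) encodes lipoprotein lipase, which frees fatty acids from triglyceride-rich lipoproteins. Its level was 149, 124 and 180 FPKM in RIP1i replicates 1 to 3 and 141, 149 and 139 FPKM in DMSO replicates 1 to 3. Cd36 (ENSMUSG00000002944.15, chromosome 5, 17781690 to 17888801, minus strand) encodes a scavenger receptor that takes up long-chain fatty acids and oxidised lipoprotein. Its level was 142, 129 and 180 FPKM in RIP1i replicates 1 to 3 and 129, 135 and 132 FPKM in DMSO replicates 1 to 3. For both genes the third RIP1i library stood above the other 5, and the remaining libraries of the groups overlapped. The log2 fold change was 0.087 (95% interval -0.21 to 0.38) for Lpl and 0.19 (-0.078 to 0.46) for Cd36, with edgeR adjusted p of 0.919 and 0.809. Without RIP1i replicate 3 these values were -0.068 and 0.032.

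Angptl4 (ENSMUSG00000002289.16, chromosome 17, 33773750 to 33781830, minus strand) encodes a secreted inhibitor of lipoprotein lipase and is a well known target of the PPAR receptors. It stood at 2.89, 3.51 and 2.56 FPKM in RIP1i replicates 1 to 3 and at 4.01, 3.83 and 3.85 FPKM in DMSO replicates 1 to 3, from 384, 484 and 352 counts in RIP1i and 589, 507 and 571 counts in DMSO. The 3 RIP1i libraries all lay below the 3 DMSO libraries and differed more among themselves. The log2 fold change was -0.38 ± 0.11 (SE), or 0.767-fold, with a 95% interval from -0.64 to -0.13, an unadjusted p of 0.00871 and an edgeR adjusted p of 0.777 over all genes, which did not pass the threshold of 0.05.

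The binding proteins Fabp4 and Fabp5 carry fatty acids within the cell, and their genes lie 187480 bases apart on chromosome 3. Fabp5 (ENSMUSG00000027533.10, 10012548 to 10016607, plus strand) had the smallest spread relative to its level over the 6 libraries, at 247, 247 and 237 FPKM in RIP1i replicates 1 to 3 and 239, 247 and 254 FPKM in DMSO replicates 1 to 3. The log2 fold change of Fabp5 was -0.013, with a 95% interval from -0.11 to 0.088. Fabp5 has near-identical copies elsewhere in the mouse genome. The one listed by name, Fabp5l2, had 1 to 3 counts per library, and how reads that match several copies were counted is not given in the sources used here. Fabp4 (ENSMUSG00000062515.3, 10204088 to 10208576, minus strand), the form best known from adipocytes and macrophages, had 28.9, 22.6 and 30.3 FPKM in RIP1i replicates 1 to 3 and 29.9, 33.7 and 29.3 FPKM in DMSO replicates 1 to 3. RIP1i replicate 2 was the lowest library and DMSO replicate 2 the highest, and the groups overlapped. Its log2 fold change was -0.18 (95% interval -0.44 to 0.084, edgeR adjusted p of 0.811), or -0.069 without RIP1i replicate 2 and -0.0048 without both of these libraries.

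Acsl1 and Acsl3 encode long-chain acyl-CoA synthetases, which join fatty acids to coenzyme A. Acsl1 is tied in mouse macrophages to inflammatory activation, and Acsl3 is known from growing lipid droplets. Acsl3 (ENSMUSG00000032883.15, chromosome 1, 78657825 to 78707743, plus strand) had 6.52, 7.27 and 6.80 FPKM in RIP1i replicates 1 to 3 and 5.78, 5.28 and 5.77 FPKM in DMSO replicates 1 to 3. All 3 RIP1i libraries lay above all 3 DMSO libraries. The log2 fold change was 0.29 ± 0.059 (SE), or 1.23-fold, with a 95% interval from 0.15 to 0.43, and its unadjusted p of 0.00136 was 11th in order among the 14857 genes. It did not pass, with an edgeR adjusted p of 0.777. The gene Utp14b overlaps Acsl3 on the same strand and had 630, 808 and 662 counts in RIP1i replicates 1 to 3 and 665, 537 and 728 counts in DMSO replicates 1 to 3, with a log2 fold change of 0.19 ± 0.10 (SE). Whether reads were shared between the 2 genes is not given in the sources used here. Acsl1 (ENSMUSG00000018796.13, chromosome 8, 46471037 to 46536051, plus strand) had 21.0, 17.7 and 21.9 FPKM in RIP1i replicates 1 to 3 and 19.4, 20.6 and 17.5 FPKM in DMSO replicates 1 to 3. The groups overlapped, with a log2 fold change of 0.079 (95% interval -0.14 to 0.30).

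Storage and burning were represented by Plin2 and Cpt1a. Plin2 (ENSMUSG00000028494.12, chromosome 4, 86648386 to 86670060, minus strand) encodes the perilipin that coats lipid droplets in most cells. It had 115, 123 and 105 FPKM in RIP1i replicates 1 to 3 and 116, 120 and 123 FPKM in DMSO replicates 1 to 3. The third RIP1i library was the lowest and the rest overlapped, with a log2 fold change of -0.066 (95% interval -0.20 to 0.072). Cpt1a (ENSMUSG00000024900.5, chromosome 19, 3322334 to 3385733, plus strand) encodes the carnitine palmitoyltransferase that admits long-chain fatty acids to mitochondria. It had 21.8, 26.4 and 21.2 FPKM in RIP1i replicates 1 to 3 and 23.4, 22.4 and 25.9 FPKM in DMSO replicates 1 to 3. The groups overlapped, with a log2 fold change of -0.045 (95% interval -0.25 to 0.16).

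**Figure D1:**
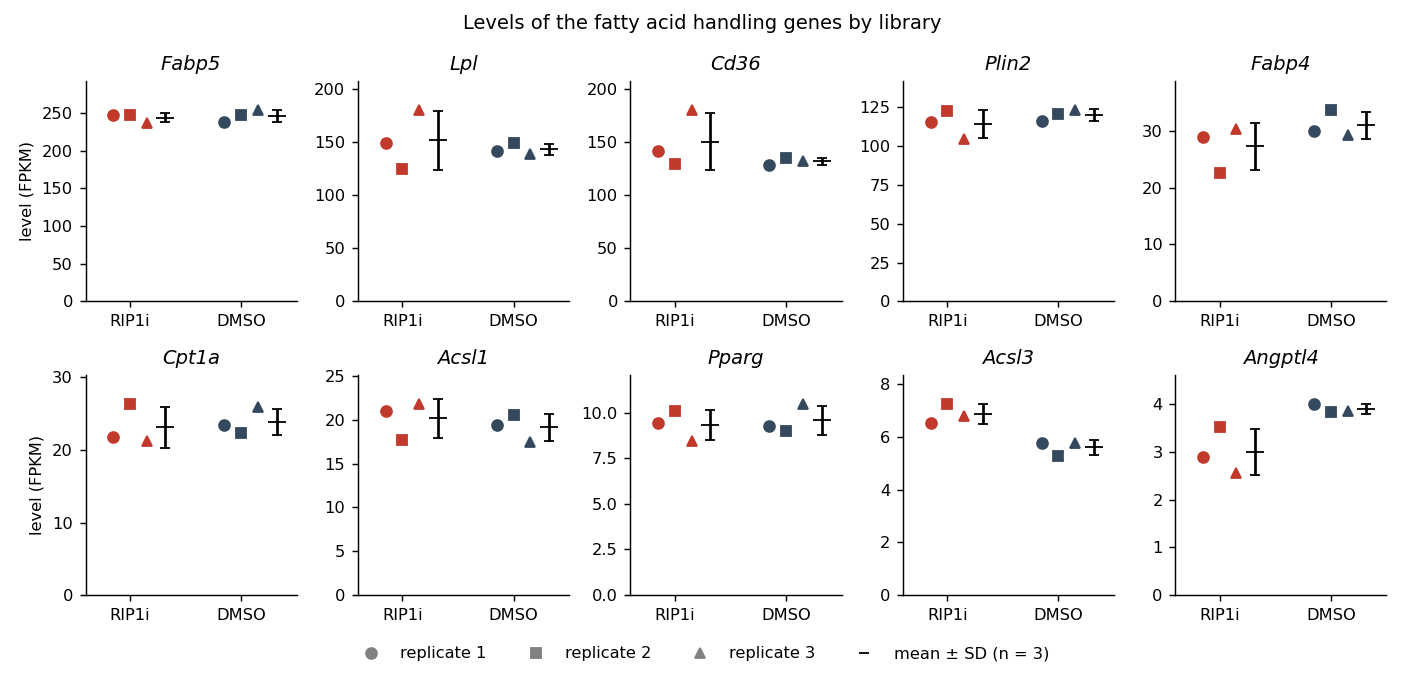
Level in FPKM (linear axes from 0) of each member in the 3 RIP1i and the 3 DMSO libraries, with marker shapes for the replicate number and bars for the mean ± SD (n = 3 each), in order of mean level. For Acsl3 and Angptl4 the RIP1i and DMSO libraries stand apart, and for Lpl and Cd36 the third RIP1i library, at 180 FPKM in both, stands above the other 5.

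Over the 10 members, then, the comparison of RIP1i with DMSO gave no call. With edgeR's quasi-likelihood test 0 members had an adjusted p under 0.05, where 0 of all tested genes (0%) did, and DESeq2 and limma-voom also called 0 members. An unadjusted p under 0.05 was found for 2 members, Acsl3 on the higher side and Angptl4 on the lower, against 6.21% of all tested genes (3.59% higher and 2.62% lower, 923 genes in all). The same 2 were the members whose groups did not overlap, 1 with RIP1i higher, as in 7.36% of all tested genes, and 1 with RIP1i lower, as in 6.18%, which makes 13.5% in either direction. The fit put 4 members higher in RIP1i and 6 lower, beside 51% of all tested genes higher and 49% lower. Their median log2 fold change was -0.027, beside 0.0025 over all tested genes. A change of more than 1.5-fold either way was outside the 95% interval for 9 members, Angptl4 being the exception, against 73% of all tested genes. The filter admitted genes from a minimum count of 10, while the lowest count of a member in a library was 352, for Angptl4. Intervals tend to be narrower at higher counts, so these shares are not of like depth.

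**Figure D2:**
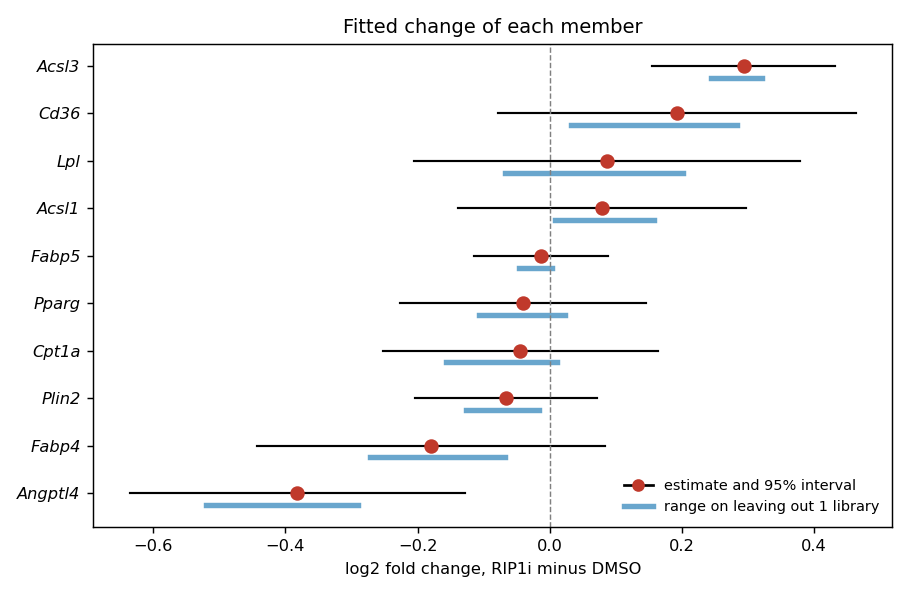
Log2 fold change of each member, RIP1i minus DMSO, from edgeR (points) with its 95% interval (black lines) and the range of the estimate when each of the 6 libraries was left out in turn (blue bars). The intervals of Acsl3 (0.15 to 0.43) and Angptl4 (-0.64 to -0.13) leave out 0 and the other 8 hold it, and no member passed after adjustment over all genes.

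For every member but Acsl3 the highest and lowest RIP1i libraries differed by more than the group means did. A range over 3 libraries readily exceeds a difference of means, so this is a description only. The range was widest for Lpl, Cd36, Fabp4 and Angptl4. Within the RIP1i libraries the highest CPM (counts scaled by library size) was 1.47 times the lowest for Lpl, 1.41 times for Cd36, 1.36 times for Fabp4 and 1.35 times for Angptl4. Within the DMSO libraries these ratios were 1.08 for Lpl, 1.05 for Cd36, 1.16 for Fabp4 and 1.05 for Angptl4. The median coefficient of variation of the members was 11.6% in RIP1i and 4.54% in DMSO, beside medians of 7.46% in RIP1i and 6.16% in DMSO over all tested genes. With 3 libraries a group, no test of the difference in spread was made.

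The RIP1i libraries differed in opposite directions for different members. On log2 CPM centred on each gene's mean over the 6 libraries, RIP1i replicate 3 was at 0.37 for Cd36, 0.31 for Lpl and 0.17 for Acsl1, and at -0.15 for Pparg, -0.15 for Plin2, -0.13 for Cpt1a and -0.39 for Angptl4. RIP1i replicate 2 lay on the other side for each of these, at -0.12 for Cd36, -0.24 for Lpl and -0.15 for Acsl1, and at 0.089 for Pparg, 0.063 for Plin2, 0.17 for Cpt1a and 0.039 for Angptl4. The library with the least Pparg transcript was therefore the one with the most Cd36 and Lpl transcript. In DMSO the highest Pparg, at 0.15 in replicate 3, stood with the lowest Acsl1 (-0.17) and Lpl (-0.084) of that group, while Cd36 was lowest in replicate 1, at -0.12, against -0.096 in replicate 3. Acsl3 followed neither side, with RIP1i replicates 1 to 3 at 0.074, 0.22 and 0.14 and DMSO replicates 1 to 3 at -0.099, -0.23 and -0.11.

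**Figure D3:**
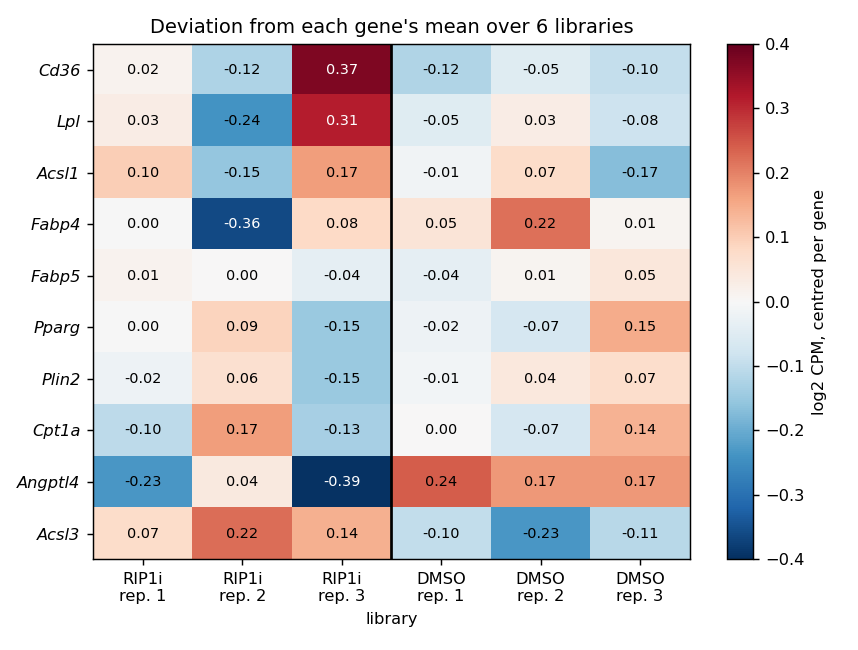
Log2 CPM of the members (rows) in the RIP1i (left) and DMSO (right) libraries, centred on each gene's mean over the 6 libraries; red is above and blue below that mean. RIP1i replicate 3 is above the mean for Cd36 (0.37) and Lpl (0.31) and below it for Angptl4 (-0.39), and RIP1i replicate 2 shows the opposite signs.

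Markers of other cells moved between these libraries too. Neutrophil and precursor markers (9 genes, 8 tested) summed to 395, 560 and 189 CPM in RIP1i replicates 1 to 3 and 381, 201 and 529 CPM in DMSO replicates 1 to 3. Most of this sum came from S100a8, at a mean of 132 CPM in RIP1i and 128 CPM in DMSO, and S100a9, at 180 and 176 CPM. The sum is therefore mainly a reading of these genes and not a measure of neutrophil content. Stromal cell markers (11 genes, 10 of them fitted lower in RIP1i and none passing) summed to 239, 89.9 and 188 CPM in RIP1i and 210, 368 and 94.9 CPM in DMSO. The library with the most Cd36 and Lpl, at 180 FPKM for both, had the lowest sum of neutrophil marker RNA. DMSO replicate 2 had nearly as little neutrophil marker RNA, at 201 CPM, with Cd36 at 135 and Lpl at 149 FPKM. Fabp4 was lowest (22.6 FPKM) and highest in the libraries with the least and the most stromal marker RNA. DMSO replicate 3 had nearly as little stromal marker RNA as the lowest library, at 94.9 CPM, with Fabp4 at 29.3 FPKM. The part of these other cells in the results was not tested. In bulk RNA fewer cells of a type and less RNA per cell cannot be told apart. Macrophage markers (9 genes, 2 fitted higher and 7 lower) summed to 45200 to 54440 CPM in RIP1i and 51800 to 59540 CPM in DMSO, mostly Lyz2, which encodes lysozyme. Adipocytes, the other cells known for Pparg, Fabp4, Lpl and Cd36, left little trace. Of 8 adipocyte markers, Lep and Adrb3 had no count in any library and the others had at most 4 counts in a library, except Lipe, an enzyme gene of lipolysis, at 30.8 CPM in RIP1i and 27.6 CPM in DMSO. Dendritic cell markers (9 genes) summed to 92.5 to 125 CPM in RIP1i and 84.6 to 112 CPM in DMSO. Endothelial markers (6 genes) summed to 146 to 159 CPM in RIP1i and 141 to 160 CPM in DMSO, of which Kdr made up 139 CPM in RIP1i and 138 CPM in DMSO. Lymphocyte markers (7 genes) summed to 1.51 to 2.35 CPM in RIP1i and 1.89 to 2.56 CPM in DMSO.

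Each member was set beside the relatives of its family on the FPKM scale. Pparg was the most abundant PPAR gene, at 9.30 ± 0.825 FPKM in RIP1i and 9.59 ± 0.796 FPKM in DMSO (SD, n = 3 each). Ppard, the broadly expressed relative, stood at 4.08 ± 0.042 FPKM in RIP1i and 4.12 ± 0.225 FPKM in DMSO (SD, n = 3 each), and Ppara, the form of liver and oxidative tissue, at 0.03 FPKM or less in each library. Among the perilipins Plin2 and Plin3 were at similar heights, Plin3 at 89.8 ± 5.50 FPKM in RIP1i and 88.1 ± 4.95 FPKM in DMSO (SD, n = 3 each), while the adipocyte and muscle forms Plin1, Plin4 and Plin5 were at 0.03 FPKM or less in each library. Cpt1a made up 99.0% of the summed Cpt1 FPKM in RIP1i and 98.5% in DMSO, with the muscle form Cpt1b at 0.04 FPKM or less.

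Acsl5 and Acsl4 exceeded both members of their family. Acsl5 stood at 44.3 ± 0.459 FPKM in RIP1i and 43.7 ± 0.910 FPKM in DMSO (SD, n = 3 each). Acsl4, which prefers arachidonic acid, stood at 33.9 ± 2.77 FPKM in RIP1i and 31.4 ± 1.59 FPKM in DMSO (SD, n = 3 each). Acsl3 made up 6.52% of the summed family FPKM in RIP1i and 5.62% in DMSO, and Acsl1 19.2% in both. Fabp5 made up 88.9% of the fatty acid binding protein FPKM in RIP1i and 87.6% in DMSO, and Fabp4 made up 9.94% in RIP1i and 11.0% in DMSO.

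**Figure D4:**
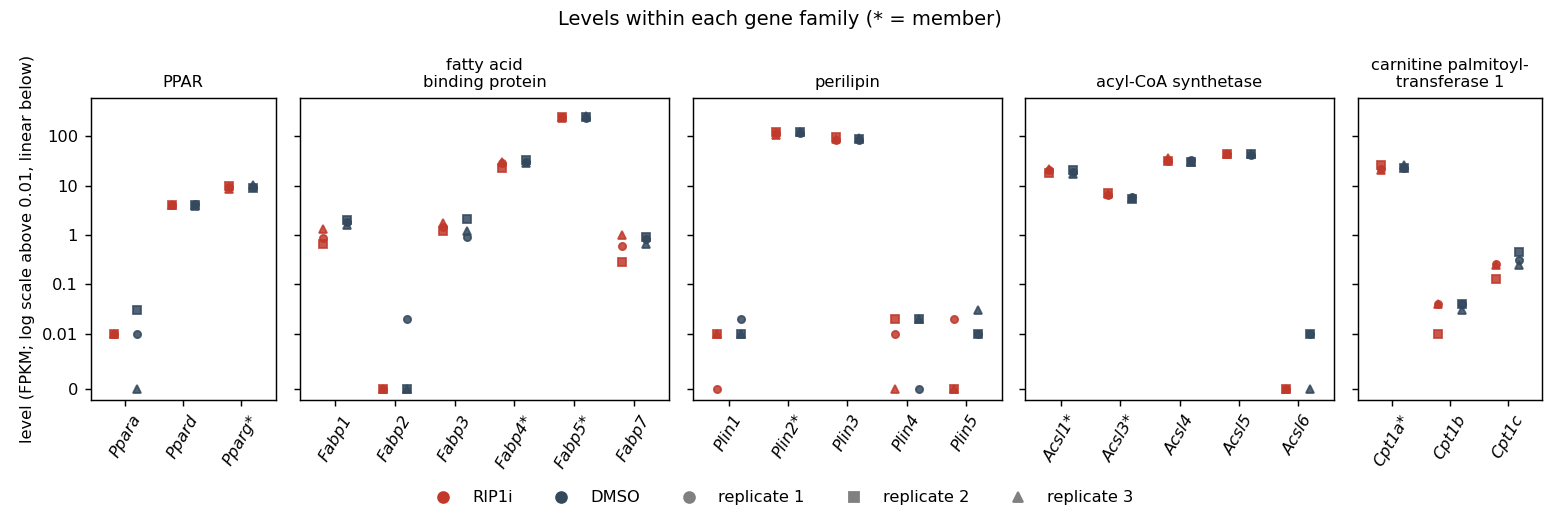
Level in FPKM (log scale above 0.01, linear below, with 0 at the bottom) of the genes of 5 families in the RIP1i (left of each pair) and DMSO (right) libraries, with marker shapes for the replicate number and stars for members. Fabp5, Plin2 and Plin3, Acsl5 and Cpt1a are the highest of their families, and Pparg exceeds Ppard in both groups.

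Ratios of members within a library were computed after the values had been seen. The FPKM ratio of Lpl to its inhibitor Angptl4 was 51.6, 35.5 and 70.3 in RIP1i replicates 1 to 3 and 35.1, 38.9 and 36.0 in DMSO replicates 1 to 3. RIP1i replicates 1 and 3 lay above all DMSO libraries and RIP1i replicate 2 among them. The ratio of Acsl1 to Acsl3 was 3.21, 2.43 and 3.21 in RIP1i replicates 1 to 3 and 3.35, 3.90 and 3.03 in DMSO replicates 1 to 3, which overlapped. The other ratios computed overlapped between the groups too. Fabp5 to Fabp4 had a mean of 9.11 in RIP1i and 8.0 in DMSO, and Cd36 to Pparg 16.4 in RIP1i and 13.8 in DMSO.

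Genes of the surrounding pathway were taken from 7 lists chosen by function, with earlier results of these data known. Of 129 listed genes, 128 were found in the table and 111 were tested. None passed in either direction with edgeR's quasi-likelihood test. An unadjusted p under 0.05 was found for 5 genes on the higher side and 3 on the lower, against 3.59% of all tested genes higher and 2.62% lower. The groups did not overlap for 7 genes with RIP1i higher and 6 with RIP1i lower, against 7.36% and 6.18% of all tested genes. The median log2 fold change was 0.017, with 70 genes fitted higher and 41 lower. For 21 of the 28 genes named from these lists by their p, omitting a single library moved the value by over 1.5 times. Only some of these moves are given below, so a value printed without one is not thereby stable.

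The receptor's partners and relatives had 4 genes fitted higher and 9 lower, with a median of -0.024. Rxra, its retinoid X partner, stood at 38.2 FPKM in RIP1i and 38.5 FPKM in DMSO, and Rxrb at 10.1 FPKM in RIP1i and 10.5 FPKM in DMSO with a log2 fold change of -0.059 ± 0.040 (SE). The coactivators Ncoa3 and Ncoa2 had -0.081 ± 0.052 and 0.064 ± 0.052, the value of Ncoa2 being 0.015 without RIP1i replicate 2.

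The uptake and binding list had 8 genes fitted higher and 6 lower, with a median of 0.0025. Fabp1, the liver form of fatty acid binding protein, stood at 0.89, 0.65 and 1.30 FPKM in RIP1i replicates 1 to 3 and 1.86, 1.98 and 1.60 FPKM in DMSO replicates 1 to 3. The groups did not overlap, the log2 fold change was -0.93 ± 0.27 (SE), and the gene had only 15 to 46 counts per library. The fatty acid transporters Slc27a1, Slc27a4 and Slc27a6 had -0.078 ± 0.063, 0.059 ± 0.040 and 0.098 ± 0.10, the value of Slc27a6 being 0.0078 without RIP1i replicate 3. Gpihbp1, which anchors lipoprotein lipase to capillary endothelium, had 0 counts. The list of other acyl-CoA synthetases and thioesterases had 6 genes fitted higher and 4 lower, with a median of 0.019. Acss1, a mitochondrial acetyl-CoA synthetase, had 0.20 ± 0.073 (0.11 without RIP1i replicate 3), Acsl4 had 0.11 ± 0.069 (0.035 without it), Acsf2 had -0.19 ± 0.12 and the thioesterase Acot1, which is nearly identical to Acot2 and may share its reads, had -0.22 ± 0.16.

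Lipid droplet and triglyceride genes were fitted higher in 13 and lower in 4, with a median of 0.030. Dgat1, which makes triglyceride in the last step of its synthesis, stood at 8.99, 8.66 and 8.51 FPKM in RIP1i replicates 1 to 3 and 9.73, 10.2 and 9.81 FPKM in DMSO replicates 1 to 3. Its groups did not overlap and its log2 fold change was -0.18 ± 0.045 (SE), with an unadjusted p of 0.00422. Dgat2, the other enzyme of that step, had 0.0050 ± 0.22. Soat1, which esterifies cholesterol for storage, had 0.074 ± 0.049. Lipe had 0.16 ± 0.13 (0.010 without RIP1i replicate 2), and Hilpda, an inhibitor of droplet lipolysis, 0.073 ± 0.085. Genes of mitochondrial and peroxisomal oxidation were fitted higher in 15 and lower in 9, with a median of 0.023. Etfa, a subunit of the flavoprotein that takes electrons from acyl-CoA dehydrogenases, had 0.11 ± 0.048, Eci2 had 0.094 ± 0.053, Ucp2 had -0.092 ± 0.048 and Cpt1c, the brain form of Cpt1, had -0.65 ± 0.31 at 0.45 FPKM or less in each library.

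Fatty acid synthesis and desaturation had 12 genes fitted higher and 2 lower, with a median of 0.077, where 51% of all tested genes were fitted higher. Elovl5 and Elovl6, elongases of polyunsaturated and of saturated fatty acids, had 0.16 ± 0.047 and 0.15 ± 0.062, both with groups that did not overlap. Elovl7 had 0.12 ± 0.060 and the desaturase Fads2 had 0.15 ± 0.096. Fasn, the synthase of palmitate, stood at 41.5 FPKM in RIP1i and 41.3 FPKM in DMSO. The GM-CSF receptor and GM-CSF dependent genes had 12 fitted higher and 7 lower, with a median of 0.027. The receptor chains Csf2ra and Csf2rb were abundant, at 116 FPKM in RIP1i and 120 FPKM in DMSO for Csf2ra and 336 FPKM in RIP1i and 308 FPKM in DMSO for Csf2rb. Csf2rb2, a near-identical copy of Csf2rb whose reads may be shared with it, had 0.21 ± 0.11. Mmp12, a macrophage elastase, had 0.18 ± 0.076, the integrin gene Itgax 0.12 ± 0.063, and Car4, a carbonic anhydrase gene of alveolar macrophages, -0.34 ± 0.16. Without RIP1i replicate 3 the value was -0.17 for Car4 and 0.10 for Mmp12, and without RIP1i replicate 2 it was 0.10 for Csf2rb2.

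**Figure D5:**
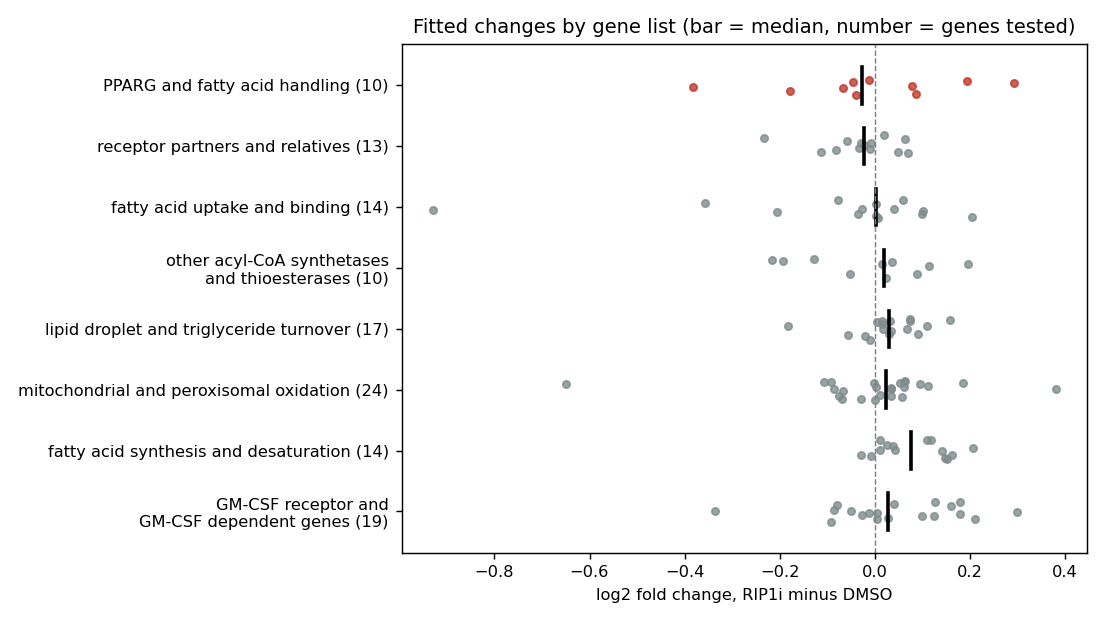
Log2 fold change, RIP1i minus DMSO, of the members (top, red) and of the tested genes in the 7 pathway lists (grey), 1 point per gene with small random vertical offsets, and the median of each list as a black bar. The medians lie between -0.027 and 0.077, and the widest values belong to weakly expressed genes such as Fabp1 (-0.93) and Cpt1c (-0.65).

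The genes whose pattern over the 6 libraries lay nearest to that of Pparg were sought among 8356 named genes that averaged 10 CPM or more. By the root mean square difference of centred log2 CPM they were Fkbp5 (0.020), Tbc1d14 (0.023), Gpr160 (0.025), F11r (0.027) and Mertk (0.028), beside a root mean square deviation of 0.097 of Pparg from its own mean. Mertk is a receptor for the uptake of dying cells, and Fkbp5 a co-chaperone of the glucocorticoid receptor. The genes nearest to Acsl3 were Slc7a11 (0.031), Sgo2a (0.031), Esco2 (0.032), Trim36 (0.036) and Twsg1 (0.042), beside 0.16 for Acsl3. Slc7a11 is the cystine transporter, and Sgo2a and Esco2 serve the cohesion of chromosomes. Of the 8356 genes, 2544 lay as near to Pparg as its own mean did, and 3554 as near to Acsl3 as its own mean did. Nearness over 6 libraries is therefore a description only.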

How the data were processed

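RNA of 6 libraries was sequenced from total RNA (1 ug, Illumina TruSeq RNA kit, per the labels' protocols). The authors deposited raw read counts per gene and FPKM values of the same reads, both used as deposited. According to the submitters' processing notes, the build was mm10 and the tools were DESeq2 1.14.0, Subread 1.4.6-p3, STAR 2.5.3a, CASAVA 1.8.4 and featureCounts. Neither annotation nor strand setting is given in the sources used here. FPKM, compared with the deposited counts, follow DESeq2-type size factors and add no reads.

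Groups came from the sample titles. Genes were filtered with filterByExpr of edgeR 4.0.16 (minimum count 10, minimum total 15; R 4.3.3) and scaled by TMM. RIP1i was compared with DMSO by the 2-sided quasi-likelihood F test over all 14857 genes with treatment as the only term, with Benjamini-Hochberg adjustment, a threshold of 0.05, SE from the F statistic and 95% intervals. The steps were tested on simulated data. Centred levels are log2 CPM with a prior count of 2. No list was tested. The members and lists were chosen with earlier results of these data known. All 10 members are named, and from each pathway list up to 4 genes with the smallest p, of which 1 is not reported here; Rxra, Gpihbp1, Dgat2, Fasn, Csf2ra, Csf2rb and Utp14b were added after their values were seen. Alternatives were DESeq2 1.42.0, limma 3.58.1 (voom, and trend on log2 FPKM), other scalings and filters, a replicate block and libraries left out. Coordinates are from GENCODE M21 (GRCm38, the same build as mm10).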

Additional observations from a re-analysis of the deposited data

How the results depend on the processing

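None of the 10 members was called under any of 19 alternatives, of which 17 were fits that gave log2 fold changes of their own. The lowest adjusted p was 0.283, for Acsl3 in the DESeq2 Wald test. Over all genes the main count was 0 (923 at an unadjusted p under 0.05), DESeq2 called 2 (571 unadjusted), limma-voom 0 (910 unadjusted) and limma-trend on log2(FPKM + 1) with no filter on low values 4. The members' median log2 fold change of -0.027 was -0.038 with upper-quartile factors and ran from -0.058 to 0.011 when single libraries were left out. Over such omissions Pparg ran from -0.11 to 0.023, Fabp5 from -0.046 to 0.0028, Lpl from -0.068 to 0.20 and Cpt1a from -0.16 to 0.011, each changing sign; Cd36 ran from 0.032 to 0.28, Acsl1 from 0.0082 to 0.16, Plin2 from -0.13 to -0.016, Fabp4 from -0.27 to -0.069, Angptl4 from -0.52 to -0.29 and Acsl3 from 0.24 to 0.32. Without DMSO replicate 2 and RIP1i replicate 2 together, Ncoa2 turned to -0.0081 and Lipe to -0.047 (0.015 to 0.085 and 0.010 to 0.26 on omitting a single library), Cpt1a was at -0.20, Angptl4 at -0.53, Cd36 at 0.30, Lpl at 0.23, Pparg at -0.15 and Acsl3 at 0.20. The cause was not tested. Omitting a single library moved 8 members, all but Angptl4 and Acsl3, and 21 other named genes by over 1.5 times, none of them called. Apart from Ncoa2 and Lipe, the other 36 of 38 named genes kept their sign in every fit that left out no single library. Only fits that tested the gene are counted.

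The labels do not say whether a replicate number pairs a RIP1i sample with a DMSO sample, and the counts cannot settle it. Deviations from the mean of 3 libraries are tied to each other, so their correlations are a description only. Same-numbered libraries had correlations of their deviations from the group means of 0.0058, -0.53 and -0.48 across genes, and no RIP1i library correlated best with its own number. The highest correlations were 0.60 for RIP1i replicate 2 with DMSO replicate 3 and 0.40 for RIP1i replicate 3 with DMSO replicate 2. RIP1i replicate 2 and DMSO replicate 3 also had the smallest chi-square per degree of freedom between their counts of all pairs of libraries, 11.2. For RIP1i replicate 1 this value was 27.1 to 34.1 with every other library, while each of the others had a pair at 13.4 or less. The largest, 39.3, was between RIP1i replicate 2 and DMSO replicate 2. With the replicate block 0 genes were called, 413 at an unadjusted p under 0.05, and Acsl3 and Angptl4 had log2 fold changes of 0.29 and -0.39. Depth limits the value of Fabp1 most, at 15 to 46 counts per library.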
